A study of Ovis aries with 24 samples.

Results

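The 6 glycolytic enzyme genes HK1, PFKL, PFKM, ALDOA, GAPDH and ENO3 were followed in the sheep ductus arteriosus and ascending aorta before and just after birth. HK1, ALDOA and 2 GAPDH probes carry the symbol on the array, and PFKM and ENO3 were named through the sheep gene ID that the array gives. The other 3 GAPDH probes, by their descriptions, and PFKL, by the array name PFK-L, were named with a table made by hand. They are 6 of the 818 genes that could be named on the array, with 13 of its 15008 probes: 1 for HK1, 1 for PFKL, 2 for PFKM, 2 for ALDOA, 5 for GAPDH and 2 for ENO3. All 13 were bright enough to be tested, and 0 were saturated on any array. Total RNA of each vessel piece was amplified, labelled with Cy3 and hybridised to a single-colour Agilent sheep array. The 6 groups were the ductus and the aorta of preterm fetuses (97 days of gestation), near-term fetuses (136 days) and newborn lambs (12 hours of age), with 4 arrays from 4 animals each, against a full term of 145 days. The titles of the fetal samples give 100 and 140 days instead. No animal is labelled as treated or genetically altered, and the labels do not say whether a ductus and an aorta of the same number came from 1 animal.

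Glycolysis splits glucose into pyruvate in the cytosol and yields ATP without oxygen. Hexokinase traps glucose in the cell as glucose 6-phosphate, phosphofructokinase commits the sugar to the pathway, aldolase splits it into triose phosphates, GAPDH oxidises glyceraldehyde 3-phosphate and makes NADH, and enolase makes phosphoenolpyruvate near the end. Several steps have isoforms from separate genes: PFKL and PFKM encode the liver-type and muscle-type subunits of phosphofructokinase, ALDOA the aldolase of muscle and most other tissues, and ENO3 the muscle (beta) enolase. The ductus carries blood from the pulmonary artery past the lungs in the fetus. After birth its smooth muscle contracts as oxygen rises, and the wall of the constricted vessel then becomes short of oxygen.

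All levels below are log2 of the background-subtracted signal minus the 75th percentile of the array, so that 0 is the 75th percentile. They compare groups for 1 probe and not 1 probe with another. Differences are given with the standard error of 1 limma fit of all 24 arrays, and adjusted p-values are from limma with Benjamini-Hochberg adjustment over 13997 tested probes, called at 0.05. Where a gene has several probes, its brightest one stands for it. The share of probes well above background ran from 66.0% to 94.5% per array. The detection limit that the file headers give for the spike-in controls was above 1.5 on 12 arrays and under it on the others: above it were 3 preterm aorta, 3 near-term aorta, 2 newborn aorta, 2 preterm ductus, 2 near-term ductus and 0 newborn ductus arrays. Within groups, 37.1% of all tested probes differed between these classes of arrays. Each stage was hybridised on 1 slide and each vessel lay in 1 slide column, so a stage cannot be told apart from its slide, nor a vessel from its column. The same holds, in whole vessel pieces, for fewer cells of a type and less RNA per cell.

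The newborn ductus held the highest mean of HK1, PFKL, ALDOA and GAPDH and the lowest of PFKM among the 6 groups by the brightest probes, while ENO3 had its highest mean in the newborn aorta and its lowest in the preterm ductus. Neighbouring groups in the order of means overlapped in range for each of the 6 genes. The drop from the newborn ductus to the next group exceeded the SD of both groups for PFKL (0.46) and GAPDH (0.60), and did not for HK1 (0.34) and ALDOA (0.38). For PFKM the drop that exceeded both SDs lay between the 4 fetal groups and the newborn groups, at 1.13. The second PFKM probe had its lowest mean in the newborn aorta (−4.58, against −4.37 in the newborn ductus). For ENO3 it lay between the preterm ductus and the next lowest group, the newborn ductus, at 0.66. Among the other neighbours the drop exceeded both SDs for HK1 from near-term ductus to preterm aorta (0.52) and for GAPDH from preterm to near-term aorta (0.33), and for none of the rest.

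**Figure D1:**
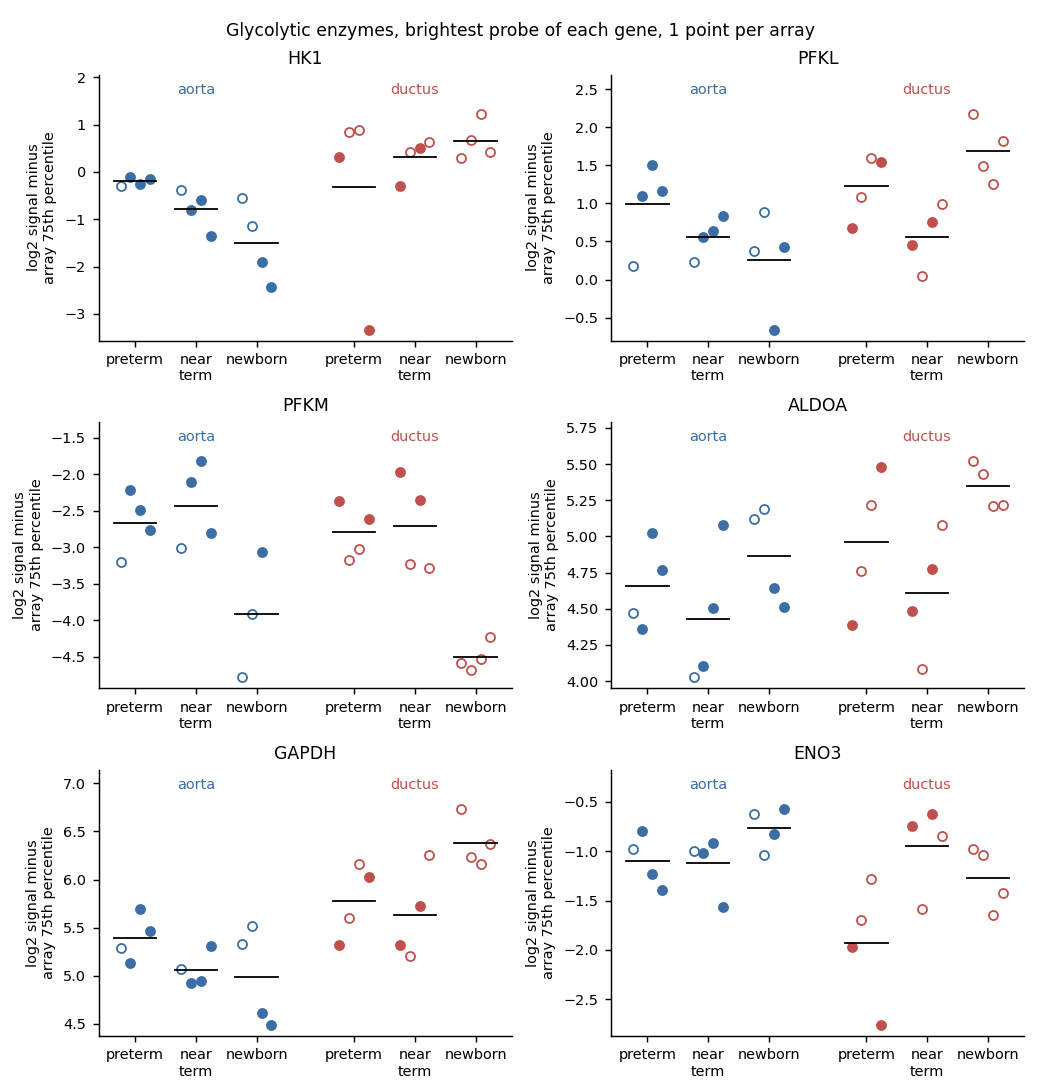
Level of the brightest probe of each gene on every array (vertical axis: log2 signal minus the 75th percentile of the array), by vessel and stage; black lines are group means, and filled points are arrays with a spike-in detection limit above 1.5. The means of GAPDH and PFKL are highest and that of PFKM lowest in the newborn ductus, and 1 preterm ductus array stands at −3.34 for HK1.

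In newborns 3 of the 6 genes had higher levels in ductus than aorta: HK1 was 4.49-fold higher, PFKL 2.70-fold and GAPDH 2.62-fold. PFKM, ALDOA and ENO3 did not pass the test. Of all tested probes 10.1% passed in this comparison, 5.15% of all being higher and 4.97% lower in the ductus, and the median difference was −0.28. By probe, 5 of 13 were higher and 0 lower, 3 of these 5 being probes of GAPDH. Ductus and aorta arrays had separate ranges for 6 of the 13 probes, against 20.1% of all tested probes.

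HK1, the hexokinase of most tissues, read 0.30, 0.69, 1.23 and 0.43 in the newborn ductus. In the newborn aorta it read −0.55, −1.14, −1.90 and −2.43. Every newborn ductus array was above every newborn aorta array. The difference was 2.17 ± 0.64 (adjusted p = 0.0362, limma). HK1 also moved with the detection limit, being lower by 0.99 ± 0.37 on arrays above 1.5 (adjusted p = 0.0395, limma), and the 2 lowest aorta arrays are those above it. Preterm ductus replicate 4, far below its group at −3.34, is also among the arrays above 1.5. The shift of HK1 with the limit was not tested without that array. It also enters the standard error of 0.64, which all 6 groups share. With the class as a covariate the difference in HK1 was 1.67 (adjusted p = 0.0702, limma), and on arrays under 1.5 alone it was 1.51 (adjusted p = 0.0242, limma). The HK1 call was also lost without newborn aorta replicate 3 or 4 or any 1 of the newborn ductus replicates 1, 2, 3 and 4, with differences of 1.86 to 2.29 and adjusted p of 0.062 to 0.107 (limma).

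PFKL, the liver-type phosphofructokinase subunit, read 2.18, 1.49, 1.25 and 1.83 in the newborn ductus. It read 0.38, 0.88, −0.66 and 0.43 in the newborn aorta. The vessels did not overlap, and replicate 3 was the lowest of the aorta arrays. The difference was 1.43 ± 0.33 (adjusted p = 0.00892, limma), and it was called without each newborn array in turn, at 1.12 to 1.64. PFKL did not move detectably with the detection limit (0.06 ± 0.22, adjusted p = 0.885, limma). The call was lost on arrays under 1.5 alone, which hold 2 newborn aorta arrays (1.06, adjusted p = 0.109, limma), and in a fit of the 2 groups alone (1.43, adjusted p = 0.0801).

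GAPDH, by its brightest probe, read 6.73, 6.24, 6.16 and 6.37 in the newborn ductus. It read 5.33, 5.52, 4.61 and 4.49 in the newborn aorta. The lowest ductus array was above the highest aorta array, and the aorta arrays fell into a higher pair under the detection limit of 1.5 and a lower pair above it. The difference was 1.39 ± 0.26 (adjusted p = 0.00193, limma), and 1.26 (adjusted p = 0.00429) with the class as a covariate. On arrays under 1.5 alone GAPDH differed by 0.95 (adjusted p = 0.11, limma).

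Muscle-type PFKM, by its brightest probe, read −4.59, −4.68, −4.53 and −4.23 in the newborn ductus. In the newborn aorta it read −4.78, −3.92 and −3.06, the spot of the fourth array being marked as an outlier and left out. These ranges overlapped, and the difference was −0.59 ± 0.39 (95% interval −1.41 to 0.24, adjusted p = 0.3, limma). The second PFKM probe differed by 0.21 ± 0.52 (adjusted p = 0.787), so the sign was not the same in both.

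ALDOA read 5.52, 5.43, 5.21 and 5.22 in the newborn ductus and 5.12, 5.19, 4.65 and 4.51 in the newborn aorta. The arrays did not overlap, but the difference of 0.48 ± 0.27 did not pass (95% interval −0.09 to 1.04, adjusted p = 0.233, limma). Muscle enolase ENO3 read −0.98, −1.04, −1.65 and −1.43 in the newborn ductus and −0.62, −1.04, −0.82 and −0.57 in the newborn aorta. The ranges of ENO3 overlapped, and the difference was −0.51 ± 0.27 (95% interval −1.08 to 0.06, adjusted p = 0.214, limma).

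Before birth none of the 6 genes passed between the vessels. In preterm fetuses 0 of 6 genes and 0 of 13 probes were called by limma, against 0.707% of all tested probes, and 1 gene had an unadjusted p under 0.05. The ranges of the vessels were separate for 1 preterm probe, the second of ENO3, against 8.41% of all tested probes. In near-term fetuses the counts were again 0 of 6 genes and 0 of 13 probes, against 1.15%, and 1 gene had an unadjusted p under 0.05. Ranges were separate near term for 1 probe, that of HK1, against 6.35%. The preterm gene was ENO3, which read −1.97, −1.70, −1.28 and −2.76 in the ductus and −0.98, −0.80, −1.23 and −1.40 in the aorta. The ranges of ENO3 overlapped and the difference was −0.83 ± 0.27 (adjusted p = 0.213, limma).

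The near-term gene was GAPDH, which read 5.32, 5.21, 5.72 and 6.26 in the ductus and 5.07, 4.92, 4.95 and 5.31 in the aorta. The difference of the brightest GAPDH probe was 0.56 ± 0.26 (adjusted p = 0.592, limma), and it was 0.38 ± 0.26 in preterm fetuses (adjusted p = 0.565). PFKL gave 0.24 ± 0.33 in preterm and −0.00 ± 0.33 in near-term fetuses, with adjusted p of 0.745 and 0.998.

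HK1 in the preterm ductus read 0.32, 0.84, 0.89 and −3.34, and in the preterm aorta −0.29, −0.10, −0.25 and −0.15. Replicate 4 was far below all other arrays, and the other 3 ductus arrays were above all 4 aorta arrays. The preterm difference of HK1 was −0.12 ± 0.64 with replicate 4 and 0.88 ± 0.36 without it (adjusted p = 0.94 and 0.484, limma). Near term, HK1 read −0.29, 0.43, 0.51 and 0.64 in the ductus and −0.37, −0.80, −0.59 and −1.36 in the aorta. The near-term arrays did not overlap, and the difference of 1.10 ± 0.64 was not called (95% interval −0.24 to 2.44, adjusted p = 0.828). This standard error and interval rest on the spread of all 6 groups. The SD of HK1 was 2.03 in the preterm ductus, with replicate 4, against 0.41 and 0.43 in the near-term ductus and aorta.

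**Figure D2:**
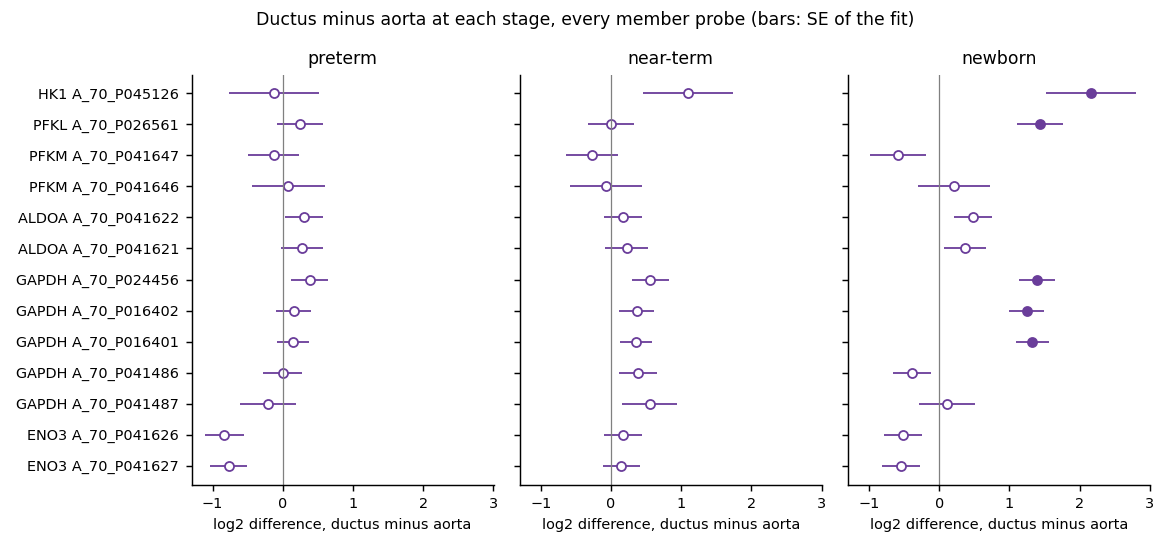
Ductus minus aorta for each of the 13 probes at the 3 stages (horizontal axis: log2 difference, with bars of 1 standard error of the fit); filled points are called at an adjusted p under 0.05. Filled points are present in newborns alone, for HK1, PFKL and 3 probes of GAPDH.

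Between near term and 12 hours after birth the ductus changed in 2 of the 6 genes by their brightest probes, in opposite directions: PFKL rose 2.18-fold and PFKM fell by 1.80 on the log2 scale. Over all tested probes 10.8% passed here, 4.37% rising and 6.45% falling, with a median of −0.31 and a lower quartile of −1.20. The change of PFKL lay above that of 97.6% of all tested probes. The fall of PFKM stood out less: 15.6% of all tested probes lay below its brightest probe, and 20.8% below its second. By probe 3 of 13 rose, PFKL and 2 of GAPDH, and 2 of 13 fell, 1 of PFKM and 1 of GAPDH. The arrays of the stages did not overlap for 7 of the 13 probes, against 22.2% of all tested probes.

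PFKL rose from 0.45, 0.04, 0.76 and 0.99 near term to 2.18, 1.49, 1.25 and 1.83 in newborns. The stages did not overlap, and the change was 1.13 ± 0.33 (adjusted p = 0.0323, limma). The PFKL call was lost without near-term ductus replicate 1, 2 or 3 or newborn ductus replicate 1 or 4, with changes of 0.95 to 1.19 and adjusted p of 0.0546 to 0.109. It was also lost on arrays under a detection limit of 1.5 (1.17, adjusted p = 0.0949) and in a fit of the 2 groups alone (1.13, adjusted p = 0.0587).

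PFKM, by its brightest probe, went from −1.97, −3.23, −2.35 and −3.28 near term to −4.59, −4.68, −4.53 and −4.23 in the newborn ductus. All newborn arrays were below all near-term arrays. The change was −1.80 ± 0.37 (adjusted p = 0.00353, limma), and it was called without each of the 8 arrays in turn. PFKM was higher on arrays above a detection limit of 1.5, by 0.88 ± 0.16 (adjusted p = 0.000111, limma), and 2 near-term ductus arrays but 0 newborn ones were above it. With the class as a covariate the change was −1.36 (adjusted p = 0.00128), and on arrays under 1.5 alone it was −1.26 (adjusted p = 0.0336). The second PFKM probe gave −1.47 ± 0.52 (adjusted p = 0.0725).

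GAPDH in the ductus rose by 0.96 ± 0.23 in probe A_70_P016401 (adjusted p = 0.0104) and by 0.79 ± 0.25 in probe A_70_P016402 (adjusted p = 0.0449, limma). The brightest GAPDH probe changed by 0.75 ± 0.26 and missed the threshold (adjusted p = 0.0684). The call of A_70_P016401 was kept without each of the 8 arrays, and that of A_70_P016402 was kept in 2 of 8 such fits, without near-term ductus replicate 4 or newborn ductus replicate 3.

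ALDOA went from 4.49, 4.08, 4.78 and 5.08 near term to 5.52, 5.43, 5.21 and 5.22 in the newborn ductus. The stages did not overlap, and the change of 0.74 ± 0.27 was not called (95% interval 0.17 to 1.30, adjusted p = 0.0834, limma). HK1 differed by 0.34 ± 0.64 (adjusted p = 0.728) and ENO3 by −0.32 ± 0.27 (adjusted p = 0.394), both with overlapping arrays.

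In the aorta 1 of the 6 genes was called between near term and 12 hours after birth, and it was PFKM, which fell in both probes. Of all tested probes 6.44% passed, 3.07% rising and 3.37% falling. The arrays of the stages did not overlap for 2 of 13 probes, both of PFKM, against 11.3% of all tested probes. The brightest PFKM probe went from −3.00, −2.11, −1.82 and −2.80 to −4.78, −3.92 and −3.06, the lowest near-term value lying just above the highest newborn one. The change was −1.49 ± 0.39 (adjusted p = 0.0296, limma), and −1.75 ± 0.52 in the second probe (adjusted p = 0.047). With the outlier spot of newborn aorta replicate 4 kept, PFKM changed by −0.79 (adjusted p = 0.429), and with median centring by −1.04 (adjusted p = 0.0798). The PFKM call was also lost without near-term aorta replicate 2 or 3 or newborn aorta replicate 1 or 2, with changes of −1.49 to −1.05, and in a fit of the 2 groups alone (adjusted p = 0.258).

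The other 5 genes in the aorta were not called. GAPDH changed by −0.08 ± 0.26 (95% interval −0.62 to 0.46), PFKL by −0.31 ± 0.33 and HK1 by −0.73 ± 0.64. ALDOA changed by 0.44 ± 0.27 and ENO3 by 0.36 ± 0.27, with adjusted p of 0.396 and 0.486 (limma).

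**Figure D3:**
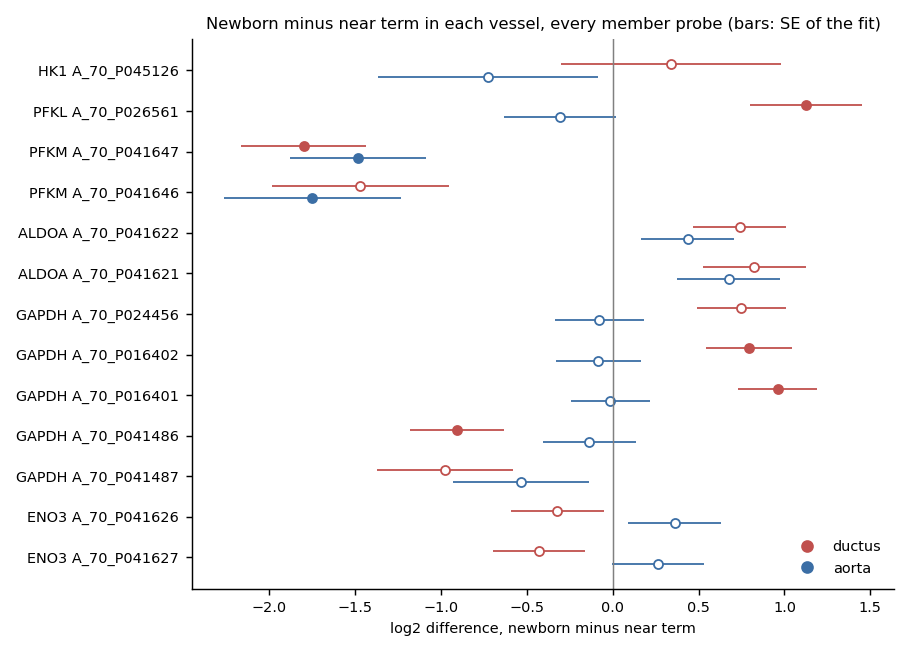
Newborn minus near term for each of the 13 probes (horizontal axis: log2 difference, with bars of 1 standard error of the fit) in the ductus (red) and the aorta (blue); filled points are called. PFKM is below 0 in both vessels. PFKL and the 3 bright GAPDH probes are above 0 in the ductus. In the aorta they lie just below 0, uncalled and with bars that cross 0.

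The difference between the vessels in their change at birth was tested itself, and 0 of 6 genes were called by limma, against 0.393% of all tested probes, with 2 genes at an unadjusted p under 0.05. These were PFKL, with a difference of 1.43 ± 0.46 (95% interval 0.47 to 2.40, adjusted p = 0.31), and GAPDH, with 0.83 ± 0.37 (95% interval 0.06 to 1.59, adjusted p = 0.59). For PFKM the difference was −0.32 ± 0.54, with an interval of −1.44 to 0.81. A different response of the ductus and the aorta to birth was thus not shown for these genes.

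Between the preterm and near-term stages no member gene was called. The count was 0 of 6 in the ductus against 0.314% of all tested probes, with 1 gene at an unadjusted p under 0.05, and 0 of 6 in the aorta against 0.493%, with 0 genes at that p (limma). The ductus gene was ENO3, which went from −1.97, −1.70, −1.28 and −2.76 to −0.74, −1.59, −0.62 and −0.84. The arrays overlapped, and the change of 0.98 ± 0.27 had an adjusted p of 0.141 (limma), with 0.95 ± 0.27 in the second ENO3 probe (adjusted p = 0.149). The arrays of the stages did not overlap for 0 of 13 probes in the ductus, against 5.99%, and for 2 of 13 in the aorta, against 9.02%.

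PFKL in the ductus changed by −0.67 ± 0.33 to near term (adjusted p = 0.454) from preterm values of 0.68, 1.09, 1.60 and 1.54. Its preterm arrays overlapped with the near-term and the newborn ones. GAPDH gave −0.15 ± 0.26 in the ductus and −0.33 ± 0.26 in the aorta, and ALDOA −0.36 ± 0.27 and −0.23 ± 0.27, with adjusted p of 0.615 to 0.89. For the difference between the vessels in this change, 0 of 6 genes and 0 of all tested probes (0%) were called by limma, with 1 gene, ENO3, at an unadjusted p under 0.05 (1.01 ± 0.38, adjusted p = 1).

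The 5 probes named GAPDH fell into 2 sets. A_70_P024456, A_70_P016402 and A_70_P016401 were well above background on all 24 arrays and tracked each other over the arrays with r of 0.945 to 0.987. A_70_P041486 and A_70_P041487, the 2 to which the array itself gives the symbol and which are described only as an unnamed cDNA, were well above background on 22 and 21 arrays. Their r with the bright probes was −0.35 to −0.13, and with each other 0.63. These correlations are over 24 arrays that share their 6 groups and scaling.

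The 3 bright GAPDH probes differed by 1.39, 1.25 and 1.33 between newborn ductus and aorta, all called. A_70_P016401 read 6.22, 5.79, 5.55 and 5.86 in the newborn ductus against 4.78, 5.02, 4.15 and 4.14 in the newborn aorta. No newborn array of 1 vessel reached the other in any of these 3 probes.

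In the same comparison the dim GAPDH probes gave −0.38 ± 0.27 and 0.11 ± 0.40 (adjusted p = 0.323 and 0.856, limma). A_70_P041486 read −5.54, −4.76, −4.77 and −4.99 in the newborn ductus and −3.87, −4.24, −3.85 and −4.47 near term. This fall of 0.91 ± 0.27 was called (adjusted p = 0.0371) and opposed the rise of the bright GAPDH probes, but it was 0.51 in the other direction after quantile normalisation (adjusted p = 0.574). The second dim probe changed by −0.98 ± 0.40 (adjusted p = 0.11). Probe sequences were not used here, so whether the dim pair reads the same transcript was not tested. With the mean over all 5 probes in place of the brightest, GAPDH differed by 0.74 between the newborn vessels (adjusted p = 0.0127).

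**Figure D4:**
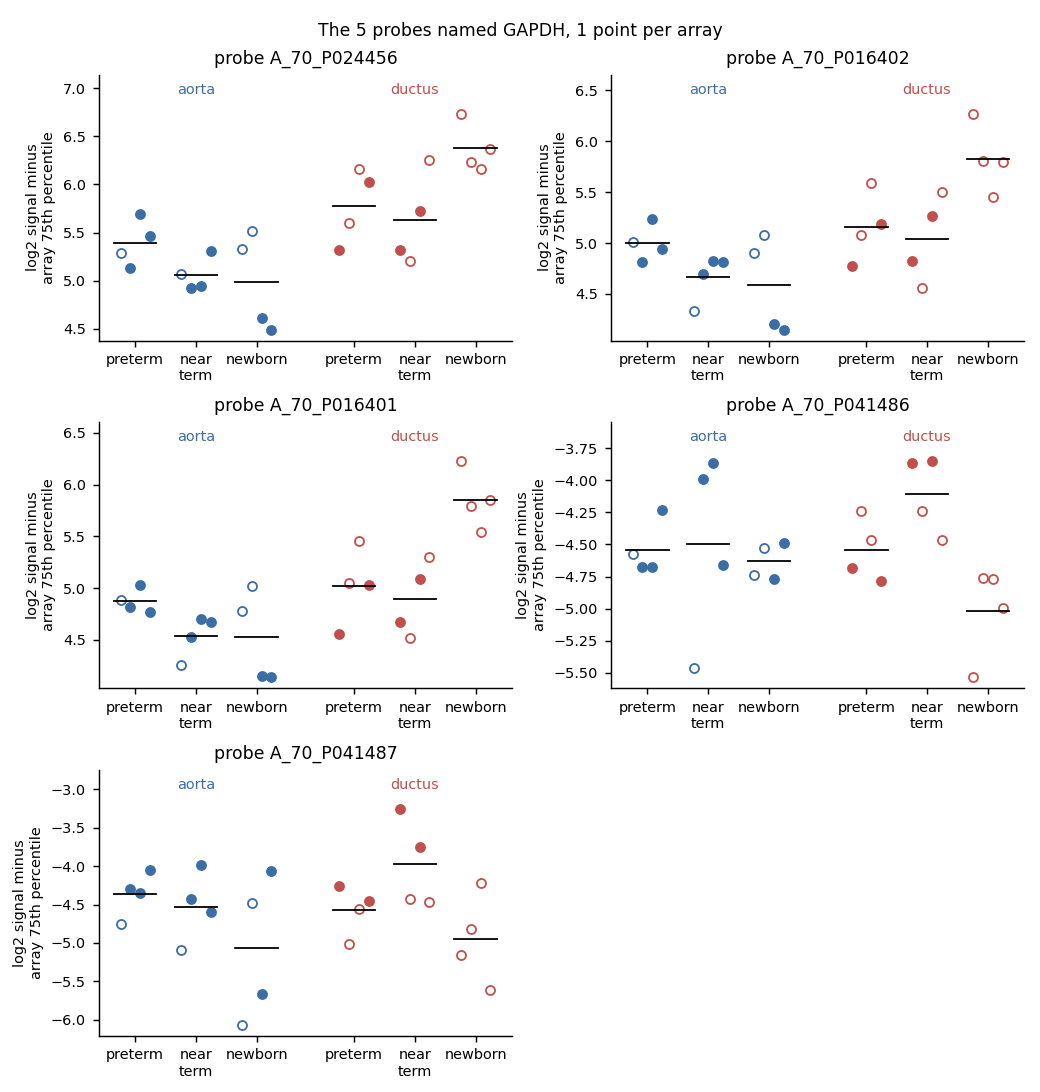
Level of each of the 5 probes named GAPDH on every array (vertical axis: log2 signal minus the 75th percentile of the array), by vessel and stage; black lines are group means, and filled points are arrays with a spike-in detection limit above 1.5. The 3 bright probes have their highest mean in the newborn ductus and the 2 dim ones do not.

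The pair of probes of each of the other genes followed each other with r of 0.957 for ALDOA, 0.947 for ENO3 (24 arrays each) and 0.869 for PFKM (23 arrays). Both ALDOA probes had the same sign in every comparison, as did both ENO3 probes except between preterm and near-term aorta (−0.02 and 0.03).

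Of the other enzymes of glycolysis and lactate formation, 3 of 28 listed genes could be named on the array. LDHA, the lactate dehydrogenase subunit that turns pyruvate into lactate, read 4.89, 4.26, 4.32 and 4.43 in the newborn ductus. It read 2.67, 3.19, 2.40 and 2.33 in the newborn aorta, with no overlap. The difference was 1.83 ± 0.26, a 3.55-fold higher level (adjusted p = 0.000246, limma), and LDHA rose in the ductus at birth by 0.99 ± 0.26 (adjusted p = 0.0219). PKLR, a pyruvate kinase gene of liver and red cells, was not called in any comparison and was not well above background on any newborn ductus array. In newborns 1 of the 3 genes was higher and 0 lower in the ductus, against 5.15% and 4.97% of all tested probes. Only 1 of the 3 had a difference above 0. Their median was −2.71, against −0.28 over all tested probes, so LDHA does not stand for the list.

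Among glucose and lactate carriers, 8 of 12 listed genes were tested. In newborns 2 were higher and 0 lower in the ductus than in the aorta, against 5.15% and 4.97% of all tested probes. The difference was above 0 for 4 of the 8, with a median of 0.23 against −0.28 over all tested probes. SLC2A2 and SLC5A1 were not well above background on any newborn ductus array. SLC2A3, the high-affinity glucose transporter GLUT3, was 19.4-fold higher (4.28 ± 0.29, adjusted p = 2.44e-08, limma). At birth SLC2A3 rose by 2.66 ± 0.29 in the ductus and fell by 1.14 ± 0.29 in the aorta (adjusted p = 7.05e-06 and 0.0219). Its difference between the vessels at birth was itself called, at 3.80 ± 0.41 (adjusted p = 0.000165). SLC2A5, the fructose transporter GLUT5, was 2.40 ± 0.63 higher in the newborn ductus (adjusted p = 0.0194). SLC2A1, the widespread glucose transporter GLUT1, and SLC16A1, a lactate carrier, gave 0.84 ± 0.39 and 0.76 ± 0.39 and were not called (adjusted p = 0.167 and 0.205).

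Of 9 tested genes of gluconeogenesis, glycogen and the pentose phosphate pathway, 0 were higher and 1 lower in the newborn ductus, against 10.1% called among all tested probes, with a median of −0.27 against −0.28. That gene was PYGB, the brain form of glycogen phosphorylase, at −0.60 ± 0.19 against the aorta (adjusted p = 0.0428) and −0.62 ± 0.19 against the near-term ductus (adjusted p = 0.0376, limma). Of 33 listed genes of the citrate cycle and oxidative phosphorylation only 2 were tested, so the list says little about these pathways. Of these IDH1, the cytosolic and not a mitochondrial isocitrate dehydrogenase, fell in the ductus at birth by 1.24 ± 0.36 (adjusted p = 0.0316, limma). Of 4 tested genes of the response to low oxygen, VEGFA, the main growth factor for blood vessels, was higher in the newborn ductus by 4.75 ± 0.72 (adjusted p = 0.000279). VEGFA was well above background on 4 newborn ductus and 2 newborn aorta arrays. This list had 1 gene higher and 0 lower in the newborn ductus, with a median of −0.24 against −0.28 over all tested probes. Its genes EPAS1 and ARNT were not well above background on any newborn ductus array.

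**Figure D5:**
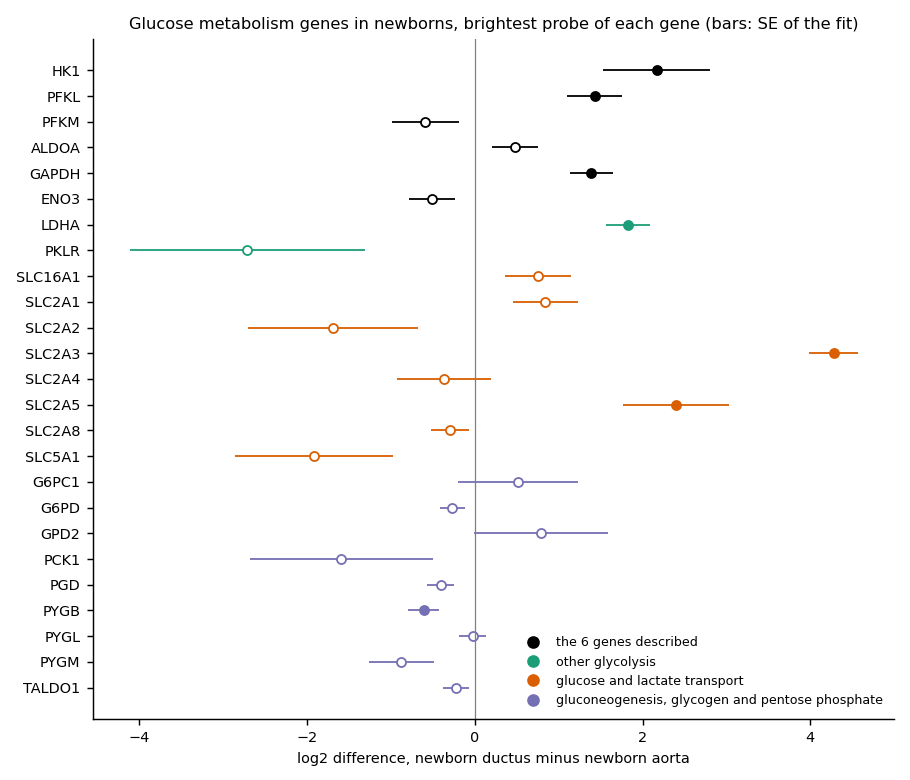
Newborn ductus minus newborn aorta for the 6 genes described and other measured genes of glucose metabolism (horizontal axis: log2 difference, with bars of 1 standard error of the fit); filled points are called. SLC2A3 lies farthest from 0, and LDHA lies beside HK1, PFKL and GAPDH above 0.

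GAPDH is often used as a reference gene, so 6 other common reference genes were set beside it. In newborns 5 of these, ACTB, B2M, PPIA, RPL13A and EEF1A1, were not called between the vessels, with differences from −0.47 to 0.11. ACTG1, cytoplasmic gamma actin, was lower in the ductus by 0.49 ± 0.14 (adjusted p = 0.0257, limma). Of all tested probes 4.97% were called lower in this comparison. The median of the 6 reference genes was −0.28, the same to 2 decimals as that of all tested probes.

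Markers of cell types were read in the same comparison, in which 10.1% of all tested probes were called, 5.15% higher and 4.97% lower in the ductus. Among the smooth muscle markers CNN1 and MYLK, both well above background on all newborn arrays, 0 were called between newborn ductus and aorta, and their summed linear signal was 84.9 to 145.0 and 65.9 to 148.5 times the 75th percentile. Of 6 endothelial markers NOS3 (1.60 ± 0.35) and SELP (2.68 ± 0.38) were higher in the newborn ductus, with a summed signal of 2.18 to 3.00 against 0.58 to 1.59, and TEK and FLT1 were not well above background on any newborn ductus array. Of 11 leukocyte markers CD86 and CXCR4 were higher and CATHL1B and BAC5 lower, the summed signal was 1.58 to 2.18 against 1.28 to 2.16, and the T cell genes CD3D and CD4 were not well above background in the newborn ductus.

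Of 4 genes listed as fibroblast markers DCN and the complement gene C3 were higher in the newborn ductus. The collagen genes COL1A1 (−0.44 ± 0.31) and COL3A1 (−0.75 ± 0.49) were below 0 and not called. The summed signal of the 4 genes was 47.0 to 74.8 against 14.4 to 31.9. Of 6 adipocyte markers FABP4 was lower by 2.10 ± 0.55, with 1.03 to 2.25 against 3.93 to 7.97. The summed signal of the red cell markers HBB and EPOR was 2.91 to 16.9 against 0.78 to 7.01, with 0 called. Of 8 skeletal and cardiac muscle markers 0 were called in this comparison, the sum was 0.10 to 0.12 against 0.14 to 1.97, and 6 were not well above background on any newborn ductus array: MYH1, MYH2, MYH7, MYOD1, MYOG and MSTN. In another comparison, the ductus at birth, 0 of these 8 rose and 1 fell, against 4.37% and 6.45% of all tested probes. It was the myoglobin gene MB, which fell by 1.68 ± 0.40 (adjusted p = 0.0107, limma). The part of these cell types in the values of the glycolytic genes was not tested.

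Over the 24 arrays PFKL, ALDOA and GAPDH varied together, with r of 0.83 for PFKL and GAPDH, 0.78 for ALDOA and GAPDH and 0.71 for PFKL and ALDOA. After subtraction of the group means r was 0.73, 0.84 and 0.70. PFKM had r of −0.57 with GAPDH and −0.60 with ALDOA over 23 arrays, and −0.43 and −0.20 after subtraction. A negative r was usual here: without subtraction, the median over 769 other named genes was −0.39 with GAPDH and −0.33 with ALDOA. HK1 and ENO3 had r of −0.33 to 0.49 with the other members. The arrays share groups, slides and scaling, so these r are descriptions.

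The gene most like GAPDH among 769 named genes was LDHA, with r of 0.946 over 22 arrays, followed by ANXA2 (0.868), which encodes a membrane-binding annexin, and IGFBP6 (0.811), which encodes a binding protein of insulin-like growth factors. The median r of GAPDH with all 769 genes was −0.39. PFKL was closest to LDHA (0.769), then to angpt2 (0.688), the angiopoietin-2 gene, and to the growth factor gene TGFB1 (0.675). ALDOA was closest to TGFB1 (0.838), then to UBE1 (0.733), a ubiquitin-activating enzyme gene, and IFNAR1 (0.710), an interferon receptor gene.

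HK1 was closest to EIF3A (0.754), which encodes a translation initiation factor subunit, C-JUN (0.676) and HOXA5 (0.673), both transcription factor genes. ENO3 was closest to TRPC4AP (0.755), the collagen gene COL3A1 (0.701) and OMC (0.684). PFKM was closest to the potassium channel gene KCNK3 (0.929), the receptor gene TLR10 (0.919) and the growth factor gene FGF7 (0.906), over 23 arrays. The median r of PFKM with all named genes was 0.49, and TLR10 was well above background on 13 arrays.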

How the data were processed

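RNA of sheep ductus arteriosus and ascending aorta was measured on 24 single-colour arrays. The authors deposited linear spot intensity: the processed, background-subtracted signal from Feature Extraction 9.5.3.1, run with protocol GE1-v5_95_Feb07 on array design 019921, per the file headers. Control spots and spots marked as outliers were left out. From log2 of each signal, log2 of that array's 75th percentile over non-control spots was subtracted. Of 15008 probes, 13997 were tested, being well above background on at least 4 arrays. Symbols came from the array's names and from RefSeq names (ARS-UI_Ramb_v3.0, no coordinates used), and 1417 probes received one. The number of arrays, 4 per group, limits the precision.

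One limma model (3.58.1, under R 4.3.3) was fitted to the 6 group means over all arrays, and its moderated two-sided tests gave 9 comparisons, each with Benjamini-Hochberg adjustment. The script was tested on simulated data. Every probe of the 6 genes was reported, and 1 gene of the other lists is not reported here. From each other gene list up to 4 called genes with the smallest p were named, besides examples chosen after their values were seen, and the 3 genes most like each member by Pearson's r. The members and lists were chosen with earlier results of these data known. Among 276 pairs of arrays 0 held identical values. Same-numbered ductus and aorta arrays deviated together, with r above 0.1, in 6 of 12 pairs. The r ran from −0.59 to 0.31 where the 2 arrays were of unlike detection limit class and from 0.15 to 0.82 where they were of like class. As the class enters these r, they cannot decide whether animals were shared. The numbers were not taken as pairs, since the labels do not give any. Alternatives were normexp background correction (offset 50), quantile normalisation, median centring, other filters, outlier spots kept, an intensity trend, array weights, the groups compared alone, the detection limit, a replicate block, the mean over probes and leaving out each array.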

Additional observations from a re-analysis of the deposited data

Results flagged for a closer look

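In the preterm ductus HK1 read −3.34 on replicate 4, while the other 3 arrays read 0.32 to 0.89, so 1 array of 4 stood far from the others by Dixon's test. Without replicate 4 the preterm difference of HK1 between ductus and aorta was 0.88 in place of −0.12, and neither was called by limma. In the near-term aorta the ENO3 probe A_70_P041626 read −1.56 on replicate 4, while the others read −1.02 to −0.92. The test was run on 77 groups of 4 arrays of the member probes and marked 2, against 3.85 by chance.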

How the results depend on the processing

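The count of the 6 genes called stayed at 0 between the preterm vessels under all 15 alternatives. Between the newborn vessels it was 3, and 1 (HK1) on arrays with a detection limit under 1.5, with 1 to 4 over the alternatives and 2 to 3 when each array was left out. For the ductus at birth it was 2, but 4 with normexp, 5 with array quality weights and 1 (PFKM) in a fit of the groups compared alone or on arrays under 1.5, and 1 to 4 when each array was left out. For the aorta at birth it was 1, but 0 with median centring, with probes well above background on all arrays, with outlier spots kept, with the groups compared alone and on arrays above 1.5, where the newborn arm of the brightest PFKM probe is 1 array and the count says nothing, and 0 to 1 when each array was left out. Array quality weights, under which 1757 to 8944 of all probes were called, gave 4 genes between the near-term vessels, 1 and 3 for the change to near term in ductus and aorta, with 1 for the vessel difference in the change to near term and 2 for that at birth. Leaving out an array called 0 genes in those comparisons. The cause was not tested. Over all probes the counts ran, between the lowest and the highest alternative, from 12 to 3151 (preterm vessels, 99 as reported), 11 to 3291 (near-term, 161), 371 to 3654 (newborn, 1416), 0 to 6836 (ductus to near term, 44), 614 to 8944 (ductus at birth, 1515), 2 to 2046 (aorta to near term, 69), 0 to 3540 (aorta at birth, 902), 0 to 2513 (vessel difference to near term, 0) and 33 to 1757 (at birth, 55). Among values of single probes 1 called value changed sign: GAPDH probe A_70_P041486 in the ductus at birth gave 0.51 after quantile normalisation. Of the other values 62 lost and 48 gained a call, and 172 uncalled ones changed sign.

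Over all alternatives the median of all probes moved by up to 0.35, for the vessel difference at birth on arrays under 1.5. With median centring the median for the ductus at birth moved from −0.31 to 0.002. For the ductus at birth 612 of 1515 calls were rises, against 742 of 1360 with quantile normalisation. These were 624 of 1028 with median centring and 693 of 5411 with normexp. Between the newborn vessels 721 of 1416 calls were higher in the ductus, against 571 of 833 with median centring. Same-numbered arrays were not taken as pairs (5 of 12 correlated best with their own number, among them newborn numbers 1, 2 and 3, consensus correlation 0.178). With a replicate block the count between the newborn vessels was 3 with a random and 2 with a fixed block, under which HK1 had an adjusted p of 0.0521. PFKM, dim GAPDH probes and other dim probes are those that the signal over background limits.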
